A study of Mus musculus with 9 samples.

Results

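Psma8, Hormad2 and Tex14 are 3 genes known for their roles in germ cells, and their transcripts were measured here in blood stem and progenitor cells. They were chosen by symbol, because earlier results of these data had them higher in mice carrying a conditional Dnmt3a allele than in wild type, and they are 3 of 39179 genes in the count table. All 3 were found and all 3 passed the filter on low counts that kept 18576 genes. The cells are LSK cells (Lin-, Sca1+, cKit+), sorted by FACS from the bone marrow of C57BL/6 mice at 6 months of age and enriched for stem cells and early progenitors. Every group, wild type included, had been injected intraperitoneally 5 times with poly(I:C), which induces interferon and through it the Mx1 promoter that drives Cre. Wild type (wt_Mx+) means Dnmt3a+/+ with Mx1-Cre, with 3 libraries. Mutant (cKI_Mx+) means Dnmt3a+/m with Mx1-Cre, with 4 libraries, in which a mutant Dnmt3a is expressed from its own locus after recombination. Cre-negative (cKI_Cre-) means the conditional allele without Cre, which the design text writes as Dnmt3a+/-, with 2 libraries. Cre-negative animals therefore differ from wild type in the Dnmt3a allele and in the absence of Cre, and these cannot be told apart. Mx1-Cre acts in any cell that answers interferon, not in blood alone. Mutant and Cre-negative animals are together called carriers below, and where a library is named, it is by its group and the number in its title.

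Many genes of meiosis and of germ cell structure are kept silent in somatic cells by methylated CpG dinucleotides in their promoters, and Dnmt3a is one of the enzymes that places this mark de novo. Psma8 encodes an alpha subunit that replaces the somatic subunit Psma7 in the proteasome of spermatocytes. Hormad2 encodes a HORMA domain protein that coats chromosome axes that have not synapsed in meiosis and takes part in the checkpoint that recognises them. Tex14 encodes a protein that keeps the bridges between dividing germ cells open by binding Cep55 in the midbody. None of these roles belongs to blood stem cells.

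In GENCODE for GRCm38, Hormad2 (ENSMUSG00000020419) lies on chromosome 11 from 4345814 to 4441105 on the minus strand and Tex14 (ENSMUSG00000010342) on the same chromosome from 87405065 to 87555823 on the plus strand. The RefSeq table of promoters (GRCm38.p6) held 2 of the 3 genes, Hormad2 and Tex14. Their promoters are shown because CpG methylation is the mark that Dnmt3a places. Each sequence is the stretch of the 250 bases before to 50 bases after the RefSeq start that no annotated transcript covers, 5′ to 3′ on the gene's own strand, with CpG dinucleotides in capitals. The Hormad2 stretch is chr11:4441106-4441332 on the minus strand, and the Tex14 stretch is chr11:87404955-87405064 on the plus strand, which is the gap between the start of Tex14 and that of Rad51c on the other strand.
Hormad2: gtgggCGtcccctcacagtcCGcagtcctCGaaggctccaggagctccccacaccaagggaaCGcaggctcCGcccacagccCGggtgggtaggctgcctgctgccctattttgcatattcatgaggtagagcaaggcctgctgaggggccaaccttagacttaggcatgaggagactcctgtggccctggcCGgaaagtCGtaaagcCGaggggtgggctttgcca
Tex14: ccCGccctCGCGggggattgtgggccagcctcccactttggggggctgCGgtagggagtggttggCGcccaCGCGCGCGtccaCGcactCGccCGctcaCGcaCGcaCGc
The Hormad2 stretch held 9 CpG in 227 bases and the Tex14 stretch 15 CpG in 110 bases, most of them in the part next to the Tex14 start. Over the full 300 bases Hormad2 had 16 CpG and Tex14 20, against a median of 7 over 32851 promoters. Their ratios of observed to expected CpG were 0.534 and 0.687, at the 60.2 and 69.9 percentiles of all promoters, so both promoters were somewhat richer in CpG than the median one. The motif CACGTG, an E-box that reads the same on both strands, was in neither window and in 7.15% of all promoters. The letters GCGGGAA or their complement TTCCCGC, the core of E2F sites, were found 1 time in the Tex14 window, where they run from Rad51c into the printed stretch and end at its first letters. They were not found in the Hormad2 window, and 4.60% of all promoters held them. These matches describe the letters in the window, and methylation itself was not measured in these files.

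The libraries held 47792306 to 58405879 counts on genes. All 8 LSK markers, among them Kit, Ly6a and Cd34, were detected, and they summed to 1929 to 2857 CPM per library. CPM are counts scaled to a common library size, after TMM scaling, which corrects library sizes for their composition. Dnmt3a, the targeted gene, lay between 148 and 173 CPM in wild type, between 153 and 171 CPM in the mutant, and at 93.5 and 118 CPM without Cre. Gene counts cannot show which Dnmt3a allele a transcript came from. The library cre_negative_819 stood apart in erythroid markers, whose 7 members summed to 1667 CPM there and to 94.8 to 210 CPM in the other libraries. In bulk RNA, a change in how many cells express a gene and a change in RNA per cell cannot be told apart.

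Psma8 (ENSMUSG00000036743, chromosome 18 from 14706151 to 14762301 on the plus strand, GRCm38) had the highest counts of the 3 and varied least within a group. Wild-type levels were 11.4, 13.0 and 12.9 CPM in the 3 libraries. By mean wild-type CPM, Psma8 stood at the 50.5 percentile of all genes tested, Hormad2 at the 36.3 and Tex14 at the 28.3. By CPM per kilobase of exon the percentiles were 55.0, 29.7 and 12.9, among tested genes with a known exon length. Genes tested had already passed the filter, so these ranks do not show how active a gene was. All 3 had counts in every wild-type library, as few as 39 for Tex14. Cre-negative levels were 22.0 CPM in cre_negative_780 and 23.2 CPM in cre_negative_819, and mutant levels 21.4, 23.5, 24.8 and 19.0 CPM in mutant_824, mutant_827, mutant_829 and mutant_830. Every carrier library lay above every wild-type library, and mutant_830 was the lowest carrier. Wild type averaged 12.5 ± 0.884 CPM (SD, n = 3), Cre-negative 22.6 ± 0.825 (SD, n = 2) and mutant 22.2 ± 2.54 (SD, n = 4). Cre-negative and mutant libraries overlapped throughout.

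The fitted log2 fold change of Psma8 was 0.84 (SE 0.13) in mutant and 0.86 (SE 0.15) in Cre-negative against wild type, a 1.78-fold and a 1.82-fold higher level. These values chose the gene and are given as a description. The counts behind them are large, from 614 to 1406 per library, and an exact Poisson interval, which covers counting error only, put the lowest carrier at 17.9 to 20.3 CPM. Per kilobase of exon, Psma8 stood at 4.99 CPM in wild type and 9.07 and 8.91 CPM in Cre-negative and mutant libraries. Its somatic counterpart Psma7 stood at 64.0 CPM per kilobase in wild type and 59.4 in the mutant, so Psma8 stayed well below the subunit it replaces in spermatocytes.

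Hormad2 showed a graded order, with wild type lowest, Cre-negative between and mutant highest. Its levels were 1.68, 3.05 and 2.80 CPM in wild type, 3.33 and 4.42 CPM without Cre, and 5.57, 6.65, 7.49 and 9.40 CPM in the mutant, with the libraries in the order given for Psma8. The 3 groups did not overlap, but the step between wild type and Cre-negative was small. The lowest Cre-negative library, cre_negative_780, rested on 158 counts, with an exact Poisson interval of 2.83 to 3.89 CPM that reached into the range of the wild-type levels. The step from wild type to mutant was wider.

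For Hormad2, wild type averaged 2.51 ± 0.732 CPM (SD, n = 3), Cre-negative 3.87 ± 0.770 (SD, n = 2) and mutant 7.28 ± 1.62 (SD, n = 4). The fitted log2 fold change against wild type was 1.54 (SE 0.27) in the mutant and 0.63 (SE 0.31) in Cre-negative libraries. The Cre-negative value depended on single libraries, wild-type ones included: it ran from 0.39 to 0.79 as each of the 9 libraries was left out in turn, and was 0.39 without cre_negative_819 and 0.79 without cre_negative_780. Hormad1, the other HORMA domain gene of meiotic axes, was close to absent, with at most 2 counts in any wild-type or Cre-negative library and at most 15 in a mutant library, and did not pass the filter.

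Tex14 was the lowest of the 3 and the most variable. Its levels were 1.53, 0.783 and 1.003 CPM in wild type, 2.25 and 3.65 CPM without Cre, and 3.95, 3.66, 6.20 and 2.39 CPM in the mutant. Every carrier lay above every wild-type library, with cre_negative_780 the nearest. Mutant and Cre-negative libraries overlapped, and within the mutant group mutant_829 was 2.59 times mutant_830.

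For Tex14, wild type averaged 1.10 ± 0.382 CPM (SD, n = 3), Cre-negative 2.95 ± 0.985 (SD, n = 2) and mutant 4.05 ± 1.58 (SD, n = 4). The fitted log2 fold change against wild type was 1.87 (SE 0.37) in the mutant and 1.42 (SE 0.42) in Cre-negative libraries. It was 1.01 in Cre-negative without cre_negative_819 and 1.69 without cre_negative_780. Between 39 and 351 counts lay behind each value. Per kilobase of exon, Tex14 was the least abundant, with wild type at 0.220 CPM and mutant at 0.808 CPM, against 0.918 and 2.66 CPM for Hormad2 on the same scale. The plot of levels by library shows the differing shapes of the 3 patterns.

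**Figure D1:**
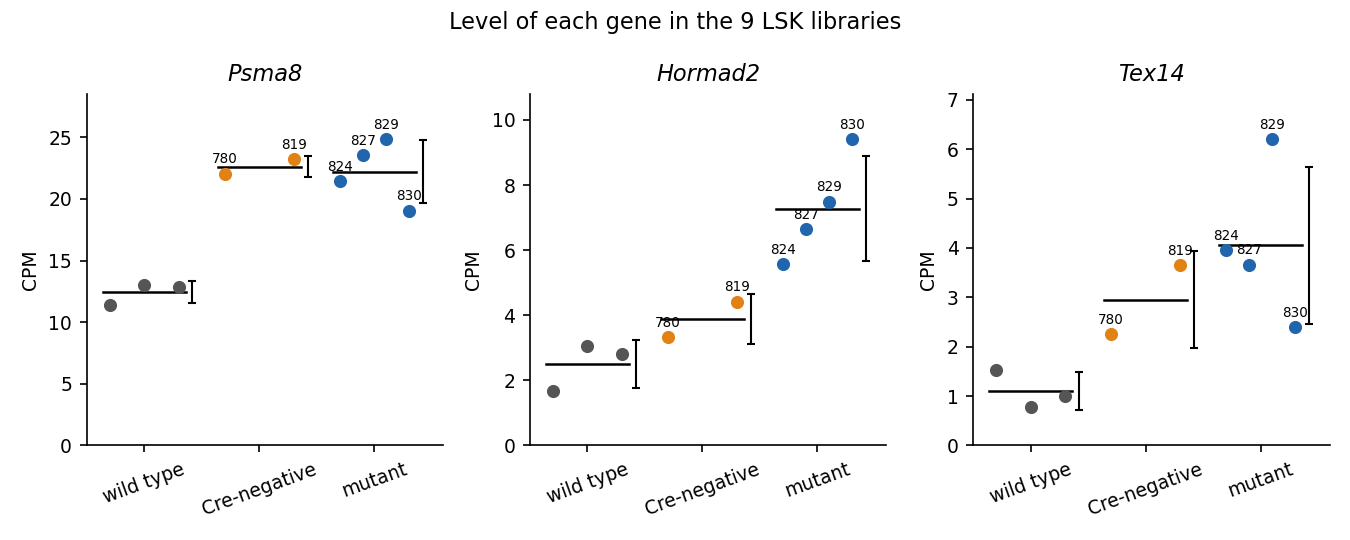
Level of Psma8, Hormad2 and Tex14 in CPM (vertical axis, from 0) in wild-type (n = 3), Cre-negative (n = 2) and mutant (n = 4) libraries; each point is 1 library, with its number for Cre-negative and mutant libraries, the line is the group mean and the bar beside it 1 SD. Psma8 sits at 19.0 to 24.8 CPM in all 6 carriers, Hormad2 steps up from wild type to Cre-negative to mutant, and mutant_829 is highest for Tex14 at 6.20 CPM.

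Across all genes, edgeR called no gene in any comparison, the 3 members included, so "higher" here describes these libraries and not a call. Called genes were 0% of 18576 for mutant against wild type, Cre-negative against wild type, mutant against Cre-negative, and both carrier groups against wild type. At an unadjusted edgeR p under 0.05 the shares were 3.17%, 5.23%, 5.26% and 3.75% in the same order. DESeq2 called 0.194%, 0.318%, 0.113% and 0.237% of the genes. Every mutant library lay above every wild-type library for 4.17% of all genes tested, every Cre-negative library for 6.25%, and every carrier library for 1.1%. Psma8, Hormad2 and Tex14 belong to each of these 3 sets. Since the members were chosen from these contrasts, nothing is read from that membership. With the mean of both carrier groups set against wild type, the log2 fold changes were 0.85 for Psma8, 1.08 for Hormad2 and 1.64 for Tex14.

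Setting mutant against Cre-negative compares animals that carry the conditional allele with and without Mx1-Cre. This contrast did not itself choose the members. Both of its groups took part in contrasts with wild type that did, so its values are not independent of the choice. Psma8 differed by -0.03 on the log2 scale (95% interval -0.33 to 0.28; edgeR adjusted p = 0.994), an interval that leaves room for a modest difference in either direction. Hormad2 was higher in the mutant by 0.91 (95% interval 0.24 to 1.58; edgeR adjusted p = 0.822), and every mutant library lay above both Cre-negative libraries, as for 5.09% of all genes. Tex14 was higher by 0.46 (95% interval -0.43 to 1.34; edgeR adjusted p = 0.950), with 3 of 4 mutant libraries above the higher Cre-negative one. Of these, mutant_827 at 3.66 CPM was nearly level with cre_negative_819 at 3.65 CPM. None of the 3 members passed over all genes, and the intervals are those of single genes, not adjusted. The Tex14 difference was 0.88 without cre_negative_819 and 0.20 without cre_negative_780, each then resting on 1 Cre-negative library, and 0.21 without mutant_829, the library highest for Tex14.

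Among the 6 carriers the 3 genes did not follow a common order. Psma8 and Tex14 had a Pearson r of 0.74 on log2 CPM (exact permutation p = 0.0903, adjusted 0.271 over 3 pairs; Spearman rho 0.54, p = 0.297, adjusted 0.746). Without the 2 libraries farthest from the median of Psma8 r was 0.20. That leaves 4 libraries with a narrower range of Psma8, which can lower r by itself. Psma8 and Hormad2 had an r of -0.26 (exact permutation p = 0.633, adjusted 0.633; rho -0.03, p = 1, adjusted 1), and 0.32 without the 2 farthest libraries. Hormad2 and Tex14 had an r of 0.28 (exact permutation p = 0.578, adjusted 0.633; rho 0.37, p = 0.497, adjusted 0.746), and 0.69 without the 2 farthest libraries. The library highest for Hormad2, mutant_830, was the lowest mutant library for both Psma8 and Tex14. No pair passed, and 6 libraries from 2 groups leave wide room for either sign.

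Y-linked transcripts were present in 5 of the 9 libraries, and no group was all of 1 kind. With Y-linked transcripts, the 2 wild-type libraries averaged 12.96, 2.93 and 0.893 CPM of Psma8, Hormad2 and Tex14 and the 2 mutant libraries 22.5, 6.11 and 3.81 CPM. With a covariate for these transcripts, the mutant log2 fold changes were 0.85, 1.50 and 1.83.

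Most genes beside the 3 members had fold changes near 0. The 12 nearest tested protein-coding genes, 2 on each side of each member, centred on a log2 fold change of 0.02 in the mutant (range -0.15 to 0.37) and of -0.01 in Cre-negative libraries (range -0.29 to 0.63) against wild type, by the median. EdgeR, DESeq2 and limma-voom each called 0 of them, and at an unadjusted edgeR p under 0.05 there were 0 in the mutant and 1, Sept4, in Cre-negative libraries. Rad51c, a recombination gene that starts 111 bases from Tex14 on the opposite strand, averaged 7.27 ± 3.09 CPM (SD, n = 3) in wild-type libraries and had a log2 fold change of 0.02 (95% interval -0.57 to 0.61) in the mutant. Taf4b, a TFIID subunit gene that follows Psma8 on the same strand, had -0.15 (95% interval -0.45 to 0.16). The cytokine genes Lif and Osm and the phosphatase gene Mtmr3 beside Hormad2 had 0.37, 0.12 and 0.07; Lif had at most 33 counts in a library. Sept4, which follows Tex14 on the same strand, averaged 5.40 CPM in wild type and 8.35 CPM in Cre-negative libraries, a log2 fold change of 0.63 (SE 0.25; edgeR adjusted p = 0.867), and had 0.22 in the mutant.

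Inside the Tex14 gene the annotation places 8 small RNA genes and pseudogenes of the count table, none sharing an exon base with Tex14. Of these, 5 were tested, all of them on the Tex14 strand, and edgeR called 0 of them, as did DESeq2 and limma-voom. All 5 had positive log2 fold changes in the mutant (0.12 to 0.82) and in Cre-negative libraries (0.30 to 0.81) against wild type. Of all genes tested, 45.7% and 53.2% were positive. The highest was Rnu3b3, a copy of the U3 small nucleolar RNA involved in ribosomal RNA processing, at 0.82 (SE 0.33; edgeR adjusted p = 0.998) in the mutant, the one of the 5 at an unadjusted edgeR p under 0.05. Copies of U1 and U3 are nearly identical and reads that did not align uniquely were not assigned to genes, so their values are uncertain.

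**Figure D2:**
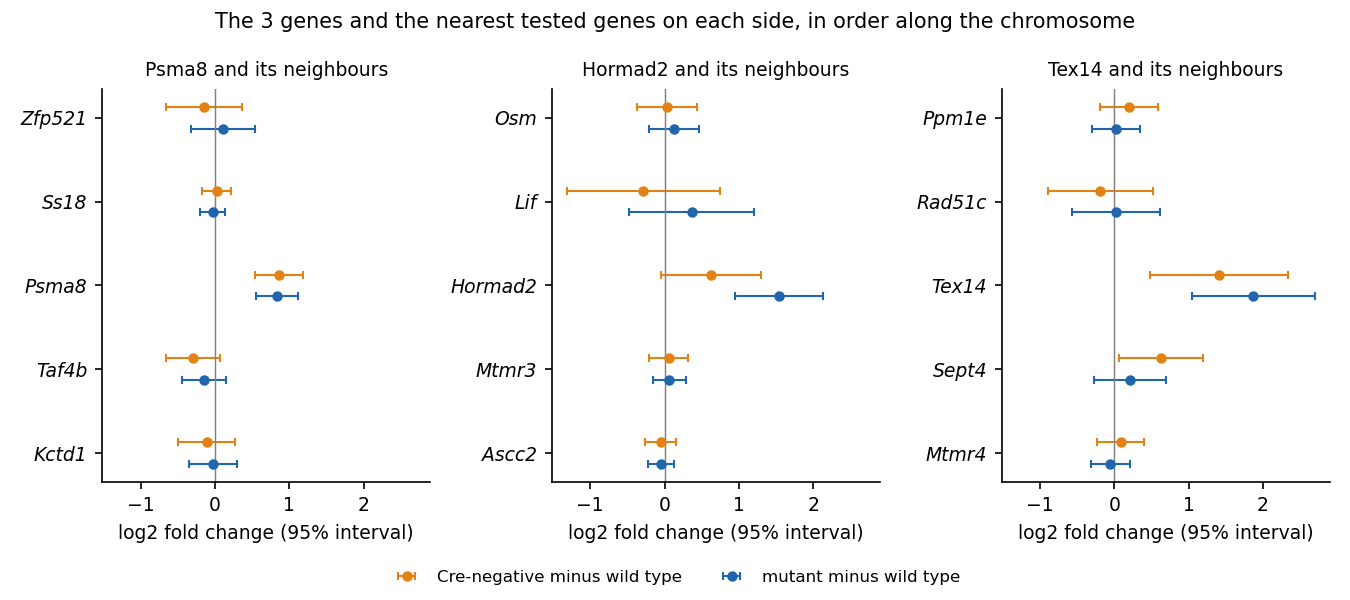
Log2 fold change against wild type (horizontal axis, edgeR estimate with its 95% interval) of each member and the 2 nearest tested protein-coding genes on each side, in order along the chromosome, for Cre-negative (orange) and mutant (blue) libraries. The members stand to the right of their neighbours, but these fold changes chose the members, so nothing is read from their place. The mutant values of the neighbours lie between -0.15 and 0.37.

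Gene lists of the 3 pathways were described by counts and medians beside all genes tested, whose median log2 fold change was -0.02 in the mutant and 0.02 in Cre-negative libraries. Positive values made up 45.7% of all genes tested in the mutant and 53.2% in Cre-negative libraries. In none of the 7 lists did a gene pass in edgeR or limma-voom in any comparison. DESeq2 called Dnmt3a itself, in the comparisons of Cre-negative with wild type and with mutant, and no other list gene. Most other proteasome genes had values slightly below 0. Of the 14 constitutive core subunits 13 had negative log2 fold changes in the mutant, with a median of -0.10, and the median was -0.06 in Cre-negative libraries. Psma5 and Psma6, 2 further alpha subunits, had -0.19 and -0.16 in the mutant. The 12 tested inducible subunits, activators and assembly factors had medians of -0.04 and -0.07, with the assembly chaperone gene Psmg1 at -0.22 and the activator gene Psme2 at -0.16 in the mutant. None of the 26 reached an unadjusted edgeR p under 0.05 against wild type.

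Genes of the meiotic chromosome axis and synaptonemal complex, the structures on which Hormad2 acts, were spread widely. Of 16 with a row of counts, 11 were tested, with a median log2 fold change of 0.37 in the mutant (6 positive, 5 negative) and 0.26 in Cre-negative libraries (8 positive, 3 negative). At an unadjusted edgeR p under 0.05 there were 2 in the mutant, both higher. The first, 4930447C04Rik, also known as Six6os1, encodes a protein of the synaptonemal complex. Its levels were 5.64, 5.54 and 8.52 CPM in wild type, 13.8 and 11.2 CPM without Cre, and 8.11, 10.4, 30.4 and 18.8 CPM in the mutant. Wild type and mutant overlapped, and mutant_829, which was also highest for Tex14 and Psma8, lay far above the rest. The other was Rec8, a meiotic cohesin subunit, for which wild type averaged 26.0 ± 4.77 CPM (SD, n = 3), Cre-negative 36.2 ± 7.12 (SD, n = 2) and mutant 33.6 ± 2.79 (SD, n = 4). Stag3, another meiotic cohesin subunit, averaged 9.11, 11.7 and 11.98 CPM in the same order. Sycp1, a core protein of the synaptonemal complex, had no count in any library.

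Genes of meiotic recombination and telomere attachment had medians of 0.13 in the mutant and 0.01 in Cre-negative libraries over 13 tested members. Dmc1, the recombinase of meiosis, was the one mutant gene of this list at an unadjusted edgeR p under 0.05. Its levels were 2.10, 3.15 and 2.50 CPM in wild type, 3.45 and 3.66 CPM without Cre, and 3.79, 4.86, 5.90 and 4.16 CPM in the mutant. The 3 groups did not overlap and stood in the same order as for Hormad2, but the steps were narrow. The lowest mutant library, at 3.79 CPM, rested on 190 counts, and the highest Cre-negative one, at 3.66 CPM, on 200. The share of all genes in such an order was not counted. Its log2 fold change in the mutant was 0.86 (SE 0.22; edgeR adjusted p = 0.998). Hfm1, a meiotic helicase gene, averaged 0.840 CPM in wild type and stood at 3.33 and 0.843 CPM in the Cre-negative libraries, so its higher mean there rests on cre_negative_780.

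Midbody and intercellular bridge genes, among which are the partners of Tex14, had medians of -0.11 in the mutant and -0.03 in Cre-negative libraries over 11 members. Cep55, the midbody protein that Tex14 binds, averaged 54.7 ± 14.4 CPM in wild-type (SD, n = 3) and 48.7 ± 1.40 CPM in mutant libraries (SD, n = 4). Pdcd6ip, an abscission factor, averaged 117 and 101 CPM. The one member with a positive value in the mutant was Rbm44, a germ cell protein of the same bridges. Its levels were 3.58, 4.54 and 6.79 CPM in wild type, 6.76 and 9.32 CPM without Cre, and 9.86, 9.20, 5.37 and 8.70 CPM in the mutant, with a log2 fold change of 0.74 (SE 0.27; edgeR adjusted p = 0.998). Wild-type and carrier libraries of Rbm44 overlapped.

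Of 30 germline genes known to be silenced by promoter methylation, 10 were tested, 2 had no count in any library and 18 were below the filter. The tested genes had medians of 0.11 in the mutant (7 positive, 3 negative) and 0.27 in Cre-negative libraries (8 positive, 2 negative). Positive values made up 45.7% and 53.2% of all genes tested. At an unadjusted edgeR p under 0.05 against wild type there were 0 in either, and 1, Zcwpw1, with both carrier groups together. Ddx4, a germ cell RNA helicase, ranged over 9.37 to 14.8 CPM in wild type and 7.37 to 17.7 CPM in the mutant, and was at 30.8 and 9.86 CPM without Cre, with no common direction. Zcwpw1, a histone reader of meiotic recombination sites, averaged 13.4, 17.2 and 17.0 CPM in wild type, Cre-negative and mutant libraries, and Tex15, a piRNA pathway gene, 4.43, 5.41 and 5.83 CPM. Repressors of germline genes, among them E2f6, Mga and Setdb1, had medians of -0.08 and 0.02 over 19 members, and the maintenance methyltransferase gene Dnmt1 averaged 793, 642 and 749 CPM.

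**Figure D3:**
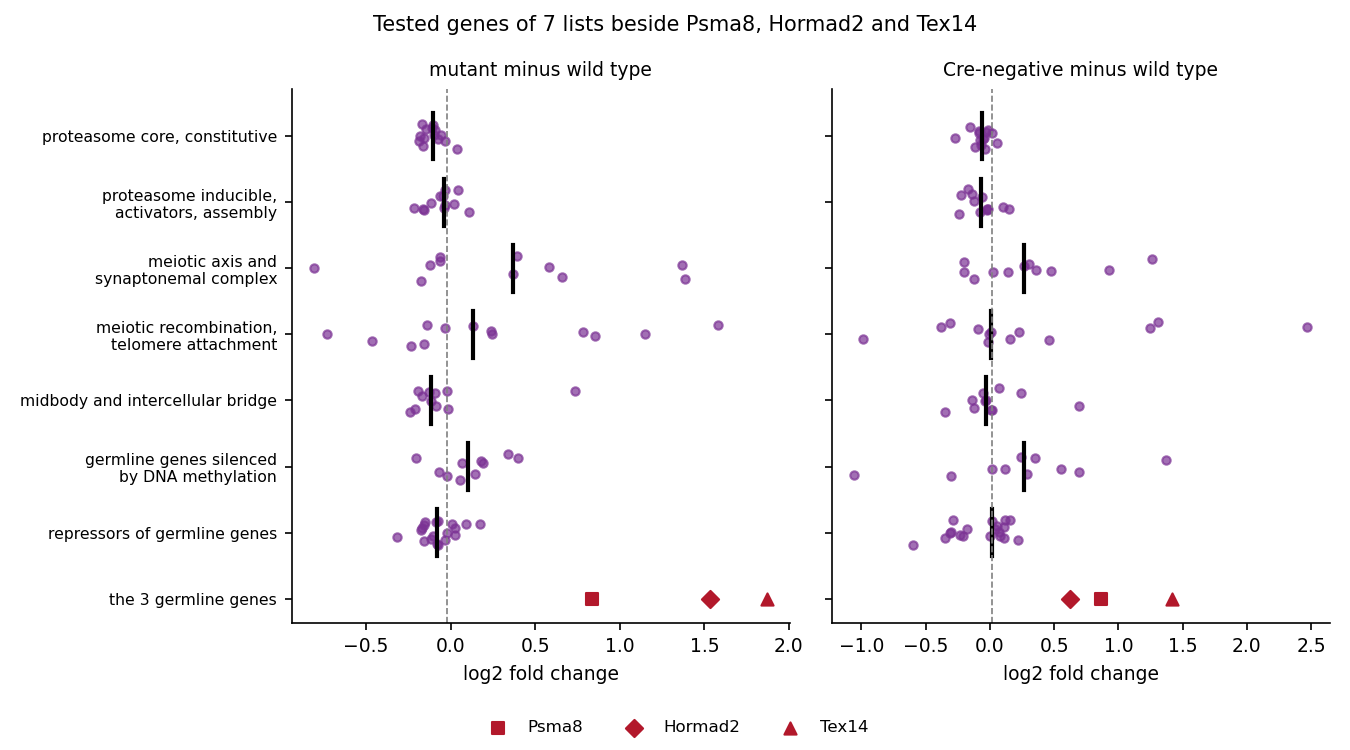
Log2 fold change against wild type (horizontal axis) of each tested gene in 7 lists, for mutant (left) and Cre-negative (right) libraries; purple points are genes, black bars list medians, the dashed line is the median of all 18576 genes, and red symbols in the lowest row are the members. In the left panel Psma8 is at 0.84, Hormad2 at 1.54 and Tex14 at 1.87, and the proteasome core is centred at -0.10. The fold changes of the members chose them, so nothing is read from their place beside the list genes.

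The genes whose log2 CPM followed each member most closely over all 9 libraries were sought among 12096 other protein-coding genes of at least 1 CPM. Likeness is the Pearson r, given as a description, and it is raised by the difference from wild type that chose the members. Dmc1 was the closest of all to Hormad2 (r = 0.90), followed by Slfn9 (0.89), Fkbp1b (0.88), Nrarp (0.88) and Pla2r1 (0.87). Psma8 was followed most closely by Platr17 (0.95), Unc5cl (0.93), Zfp105 (0.93), Fam122a (0.91) and Tmem116 (0.90). Zfp105, a zinc finger gene, was also the closest to Tex14 (0.94), ahead of Kif9 (0.91), Ptpdc1 (0.89), Kdm4a (0.89) and Psma8 itself (0.88). Among the members, Tex14 ranked 11 for Psma8, and Hormad2 ranked 60 for Psma8 and 106 for Tex14. For Hormad2, Psma8 ranked 30 and Tex14 74. The members share the difference from wild type that chose them, so nothing is read from these ranks.

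Markers of other cells that the sort could hold were summed per library. Of 12 germ cell markers, Tnp1 and Odf1 had no count in any library and Prm1, Prm2, Tnp2, Pgk2 and Stra8 had at most 7, while Ddx4 gave most of the sum, at 10.1 to 15.8 CPM in wild type, 11.1 and 32.3 in Cre-negative and 8.09 to 18.4 in mutant libraries. The 5 stromal and endothelial markers summed to 2.85 to 7.37 CPM in wild type, 7.99 and 21.6 in Cre-negative and 6.31 to 12.9 in mutant libraries, and none was at 0 in all libraries. The 7 neutrophil markers ranged from 50.2 to 162 CPM, 38.5 to 319 and 133 to 402, the 8 B cell markers from 35.2 to 49.1, 37.0 to 63.0 and 46.7 to 65.0, and the 5 T cell markers from 2.77 to 4.22, 3.96 to 6.49 and 4.25 to 5.62 in the same order of groups. The 5 mast cell and basophil markers ranged from 81.9 to 110 CPM in wild type, 83.3 to 231 in Cre-negative and 57.6 to 94.9 in mutant libraries. The ranges of the stromal, neutrophil, B cell and T cell sums thus lay higher in mutant than in wild-type libraries. Those of T cells did not overlap, but the wild-type maximum of 4.22 CPM nearly met the mutant minimum of 4.25 CPM. For the stromal sum, both Cre-negative libraries also lay above the wild-type maximum of 7.37 CPM. The members were higher in carriers too, and the part of these cells in the result was not tested.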

How the data were processed

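Ribosomal RNA was removed from total RNA and the libraries keep strand, per the labels' protocols. The submitters' processing notes name STAR, HTSeq 0.5.3p3, DESeq2 and the build mm10 (GRCm38); annotation and strand setting: not given in the sources used here. The authors deposited raw counts per Ensembl gene. The 5 rows naming no gene (40.5% to 47.3% of reads) were left out, and the scaled copy of the counts was not used. GENCODE matched 37607 of 39179 identifiers.

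After filterByExpr and TMM scaling, a quasi-likelihood model with a mean for each group was fitted over the 9 libraries in edgeR 4.0.16 (R 4.3.3), two-sided, with Benjamini-Hochberg adjustment over 18576 genes at 0.05. Log2 CPM used a prior count of 2. The alternatives covered scaling by RLE or upper quartile, DESeq2 1.42.0, limma-voom with quality weights (limma 3.58.1), no filter or 1 CPM in 4 libraries, only the groups compared, a covariate for Y-linked transcripts, and leaving out each library. The fit was tested on simulated data. The labels name no batch and give libraries only a number, so p-values measure the spread between these libraries.

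The members and lists were chosen with earlier results of these data known. Named genes were the members, Dnmt3a, in each list up to 4 genes of lowest p in either contrast with wild type, the neighbours (2 tested genes on each side and all genes inside a member), germ cell markers with counts, and the 5 protein-coding genes of at least 1 CPM most like each member. Psma7, Hormad1 and Sycp1 were added after values were seen. Results that need the names of wild-type libraries are not reported here.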

Additional observations from a re-analysis of the deposited data

Results flagged for a closer look

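Among the 4 mutant libraries, the values of 31 genes (the 3 members and the named list genes) were checked for a library far from the other 3. Psmg3, a proteasome assembly chaperone gene, stood at 21.1 CPM in mutant_824, far above the other 3 mutant libraries, where chance flags about 1 in 20 groups. None of Psma8, Hormad2 and Tex14 had such a library.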

How the results depend on the processing

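The 150 alternative fold changes of Psma8, Hormad2 and Tex14 against wild type all kept their sign, and scaling changed none of them in direction. Their sizes moved: in Cre-negative against wild type Tex14 ran from 1.01 to 1.71 and Hormad2 from 0.39 to 0.79. The number of genes called over the whole table, 0 in edgeR, was 36 for mutant against wild type, 59 for Cre-negative against wild type, 21 for mutant against Cre-negative and 44 for carriers against wild type with DESeq2, and 13 for mutant against wild type with limma-voom. DESeq2 called all 3 members in mutant and in carriers against wild type, and Psma8 alone of them in Cre-negative against wild type. Limma-voom called Hormad2 in mutant against wild type. EdgeR called Psma8 in Cre-negative and in carriers against wild type without cre_negative_780, and in carriers against wild type without cre_negative_819. The members were chosen from these contrasts. Leaving out 1 library at a time gave 0 to 650 calls for Cre-negative against wild type, 0 to 1835 for mutant against Cre-negative and 0 to 35 for carriers against wild type, each highest without cre_negative_780. The Cre-negative group is then 1 library, which is assumed to vary like the other groups, and without cre_negative_819 the counts were 62, 9 and 30. The Psma8 difference between mutant and Cre-negative, -0.03, was 0.026 with upper-quartile scaling, 0.0103 with only the groups compared, and -0.051 to 0.074 without single libraries. The correlation of Psma8 and Hormad2 among carriers ran from -0.58 to 0.62 and that of Hormad2 and Tex14 from -0.24 to 0.88 without single libraries. In the shorter promoter window, from 100 bases before to 50 after the start, observed over expected CpG was 0.712 for Hormad2 and 0.824 for Tex14. The cause of these shifts was not tested. No paired analysis was possible because the groups share no replicate numbers. The groups were small, with 2 Cre-negative and 3 wild-type libraries, and as few as 39 counts lay behind a Tex14 value. None of the 3 members passed over all genes between mutant and Cre-negative. The single-gene 95% intervals of Psma8 and Tex14 spanned both signs. That of Hormad2 ran from 0.24 to 1.58, not adjusted.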
